A study of Mus musculus with 18 samples.

Results

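The 12-month C57BL/6J control mice gave 5 of the 18 libraries of this mouse optic nerve head series, and their RNA profile is described here as the baseline of the tissue. The libraries were chosen by their titles, with no measured value used. The other 13 libraries came from B6.EDA+/+ mice at 12 months (5 libraries), C57BL/6J controls at 22 months (5 libraries) and B6.EDA+/+ mice at 22 months (3 libraries). B6.EDA+/+ mice carry a fibronectin allele whose transcripts always keep the extra domain A exon, and C57BL/6J is the unmodified strain. In all 4 groups the optic nerve head was cut from sections by laser capture microdissection, and cDNA was made from nanogram amounts of total RNA. The labels state no sex, litter or preparation batch, and do not say whether each library is a separate animal, so the spread between libraries may be technical in part.

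The optic nerve head is where the axons of the retinal ganglion cells leave the eye. In the mouse it holds no collagenous plate of the kind found in primates: the axon bundles pass through a lamina built of astrocytes, among capillaries, microglia and sparse connective tissue. The axons are bare in this glial lamina, and oligodendrocytes wrap them in myelin only behind it. Astrocytes of the lamina are known for abundant intermediate filaments, among them glial fibrillary acidic protein (Gfap).

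The 5 libraries held 13097498 to 17976988 expected counts, the estimated reads per gene after reads that match several genes are divided among them. Levels are given as TPM (a transcript's share of all transcripts), which are scaled for transcript length and to a common total in each library, so that genes can be compared within a library. A median of 1 TPM or more was reached by 10901 genes, of which 9831 were protein-coding. A single identifier without a symbol, ENSMUSG00000119584 (1849 nucleotides), took 11.3% to 31% of the counts, and transcripts under 250 nucleotides took 12.2% to 24.4% of the TPM on 0.0389% to 0.146% of the counts. Protein-coding genes took 50.5%, 46.6%, 65.9%, 61.5% and 50.5% of the TPM in replicates 1 to 5, and TPM of different libraries are relative to these unequal totals. Replicate 3 stood apart from the others: it had the lowest number of genes at 1 TPM or more (9994 against 10932 to 11990) and the highest protein-coding share. Counts of each pair of the 5 libraries differed by far more than sampling noise (chi-square per degree of freedom of 82.9 or more), so none was a copy of another, which does not show that they came from separate animals.

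The astrocyte markers Gfap and Ednrb were the highest of the markers in the labelled tissue, and the vascular marker Pecam1 was close to undetected. Gfap was at 6487, 4624, 2845, 5854 and 4280.5 TPM in replicates 1 to 5 (4818 ± 1421, SD, n = 5), rank 10 among protein-coding genes by median. Ednrb, the endothelin receptor type B that astrocytes carry, was at 4202, 3493, 5269, 6649 and 4491 TPM (4821 ± 1204), rank 11. Gfap was above Ednrb in 2 of 5 libraries, so the order of this pair was not resolved by the spread. Aqp4, the water channel of astrocyte endfeet, was far lower at 65.7, 45.7, 114, 91.6 and 130.1 TPM (89.4 ± 34.4), rank 913. Lum, which encodes the collagen-binding proteoglycan lumican, was at 74.7, 130.1, 109.9, 130.2 and 88.5 TPM (107 ± 24.8), rank 761. These levels overlapped, and Lum was above Aqp4 in 3 of 5 libraries. Csf1r, the colony stimulating factor receptor on which microglia depend, was at 49.6, 50.2, 33.2, 39 and 63.9 TPM (47.2 ± 11.8), rank 1631. Aqp4 was above Csf1r in 4 of 5 libraries. Pecam1, an adhesion protein of endothelial cell junctions, was at 0.59, 0.07, 0.37, 0.65 and 0 TPM on 20, 2, 13, 18 and 0 expected counts, below Csf1r in 5 of 5 libraries.

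Mbp, the myelin basic protein gene, had the widest spread of the markers above 1 TPM. It was at 1397, 1939, 251, 70.3 and 69.7 TPM in replicates 1 to 5 (745 ± 867). Its level was high in replicates 1 and 2, intermediate in replicate 3 and low in replicates 4 and 5, a range of 27.8-fold. It was below Ednrb in 5 of 5 libraries and above Lum in 3 of 5.

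**Figure D1:**
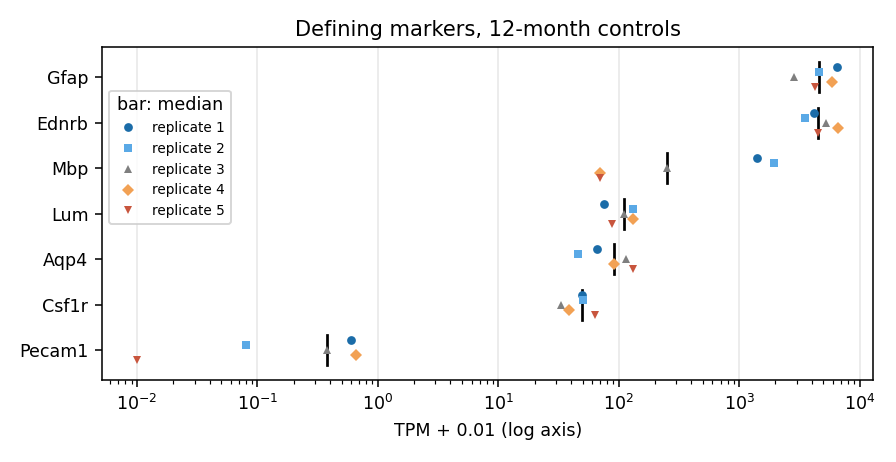
TPM of the 7 defining markers in each 12-month control library, on a log axis after adding 0.01, with a point per replicate and a bar at the median. Gfap and Ednrb overlap, with no value below 2845 TPM, Mbp spans 69.7 to 1939 TPM, and Pecam1 stays below 1 TPM in every replicate.

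The profile rested on few genes. The 100 genes of highest median held 63.2% ± 4.93 (SD, n = 5) of all TPM, with a lowest share of 57.4% and a highest of 68.7%. Among protein-coding genes alone, the leading 100 held 39.9% ± 1.25 of the protein-coding TPM. Of the 30 most abundant genes with a symbol, Lars2, the mitochondrial leucyl-tRNA synthetase gene, came first with 16994, 15902, 17435, 13926 and 9668 TPM. The part of read assignment in the level of Lars2 was not tested. Another 11 identifiers ranked above the last of these 30 and were passed over, 8 of them without a symbol and 3 of them predicted or pseudogene models. Such short features were unsteady: ENSMUSG00002076173, of 57 nucleotides, was at 13819, 182242, 94536, 135538 and 23351 TPM on 302, 4847, 2232, 3101 and 272 counts.

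Cd81, a tetraspanin that organizes membrane complexes, was at 10039, 8520, 26098, 14794 and 8265 TPM, with replicate 3 above the rest. Itm2b, an integral membrane protein that interacts with the amyloid precursor protein, was at 9507, 7597, 10208, 12173 and 9599 TPM. Sparc, a secreted matricellular glycoprotein that binds collagen, was at 6854, 6014, 9693, 10504 and 7473 TPM. Itm2b and Sparc were within 1.60-fold and 1.75-fold over the 5 libraries, whereas Cd81 varied 3.16-fold. Clu, the secreted chaperone clusterin, had 3247, 2430, 2279, 3811 and 3202 TPM. Cp, the copper-carrying ferroxidase ceruloplasmin, had 1560, 1490, 3088, 2636 and 2286 TPM, lower in replicates 1 and 2 than in the other 3. Ddr1, a collagen receptor tyrosine kinase, had a median of 1591 TPM.

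Gapdh, a glycolytic dehydrogenase, was at 9415, 7513, 10925, 11852 and 8734 TPM, and Ubb, a polyubiquitin gene, was at 8885, 7422, 9919, 10733 and 9031 TPM. By fold these were the steadiest of the 30 after Cnn3, a calponin that binds actin (median 2654 TPM, 1.38-fold range). The respiratory complex I genes mt-Nd2 (8405, 15071, 11110, 10107 and 18035 TPM) and mt-Nd1 (median 5066 TPM) are encoded in the mitochondrial genome and were highest in replicates 2 and 5. Kif5a, a kinesin motor heavy chain expressed by neurons, was at 2908, 2828, 2334, 4110 and 5599 TPM, highest in replicate 5. Cystm1, a small membrane protein gene, was at 3952, 3445, 11563, 5589 and 4131 TPM, and Prkar1a, a regulatory subunit of protein kinase A, ranged from 1340 to 4625 TPM. Lars2, Cd81, Cystm1, Cox6a1, Rpl38, Calm2, Gstm1, Ucp2, Gna12, Cp and Prkar1a all had their highest level in replicate 3, the library with the highest protein-coding share, and the part of that share in their levels was not tested.

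**Figure D2:**
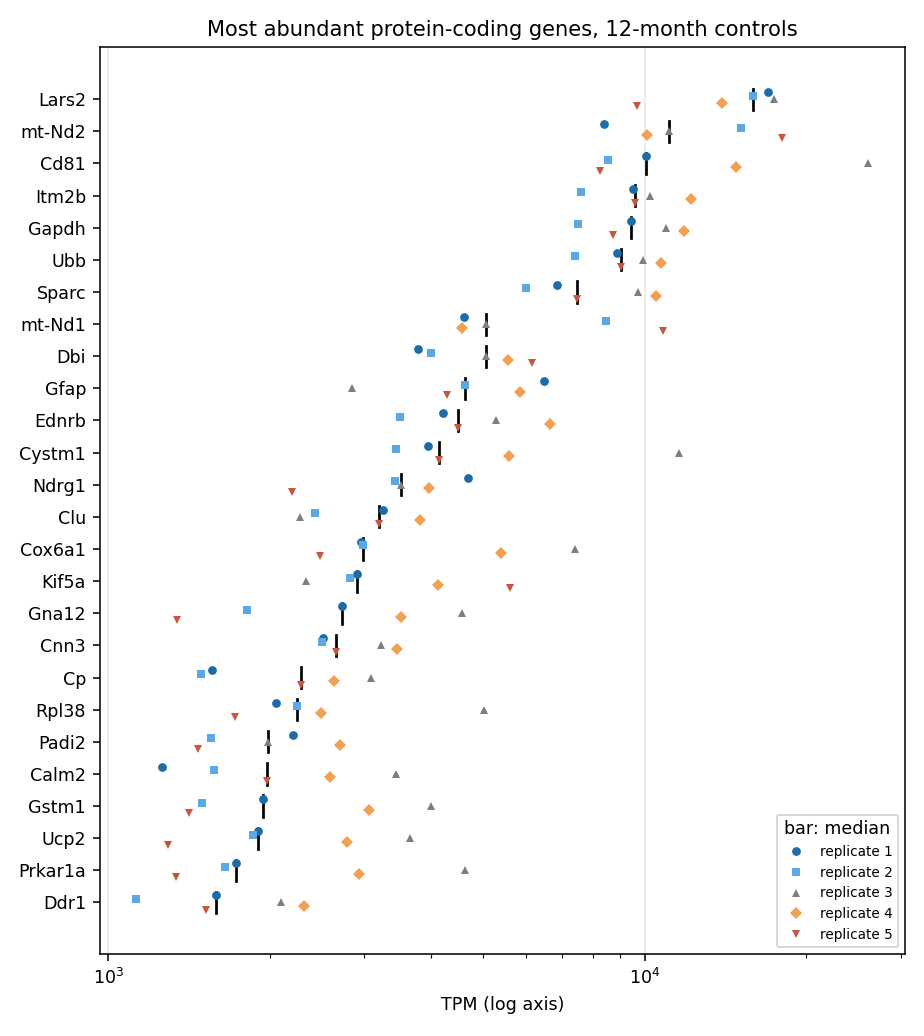
TPM of the protein-coding genes among the 30 most abundant named genes, on a log axis, with a point per 12-month control library and a bar at the median. Lars2 leads at a median of 15902 TPM, and replicate 3 lies far to the right for Cd81, Cystm1, Cox6a1 and Rpl38.

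Cell type marker lists put astrocytes first in every library. Summed over 18 astrocyte genes, the level was 14513, 11375, 14410 and 17929 TPM in replicates 1 to 4 and 11722 in replicate 5, and 15 of the 18 genes had a median of 10 TPM or more. The sum rested largely on Gfap and Ednrb, at medians of 4624 and 4491 TPM, where the median member was at 151 TPM. The first place of the astrocyte list depended on these genes. Without them it was below the reactive astrocyte and Mueller glia lists per gene in every library. It was also below the myelin list in replicates 1 and 2. After Gfap and Ednrb, the highest were Glul, glutamine synthetase, at 1406, 1496, 3507, 2271 and 631 TPM, and Mlc1, a membrane protein of astrocyte junctions, at 385, 357, 726, 558 and 513 TPM. Glul was the most uneven of the astrocyte genes above 10 TPM and the only 1 of the 15 to range over 4-fold. The level per gene in the astrocyte list exceeded that of the endothelial list by 21.1 to 29.3-fold, that of microglia and macrophages by 11 to 30.7-fold and that of connective tissue by 6.11 to 12.5-fold. In bulk tissue, fewer cells of a type and less RNA per cell cannot be told apart, so these ratios compare RNA and not cells. The Mueller glia list shares Glul, Vim, Slc1a3 and Aqp4 with astrocytes and summed to 3082 to 5554 TPM. Of its 10 members, 6 had a median of 10 TPM or more. The members not shared went both ways. Crym was at 0 in all 5 libraries, whereas Rlbp1 (named after its values were seen) was at 35.2, 22.1, 18.45, 52.4 and 23.3 TPM.

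Genes associated with reactive astrocytes were uneven, and Cp made up 62.1% of the median sum. In the list of 12, 7 genes had a median of 10 TPM or more. The rest were low (named after their values were seen): Cxcl10 and Cd44 had medians of 2.69 and 2.04 TPM, and Lcn2, Steap4 and Timp1 of 0. Lcn2 was at 0 in all but replicate 4, which held 4 counts. Vim, the intermediate filament vimentin, was at 584, 626, 1121, 620 and 624 TPM, so that replicate 3 stood alone. Serpina3n, a secreted protease inhibitor, was at 459.7, 367, 374, 447 and 129.99 TPM, with replicate 5 alone at the low end. S1pr3, a sphingosine phosphate receptor, was at 224, 225, 379, 324 and 383 TPM.

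**Figure D3:**
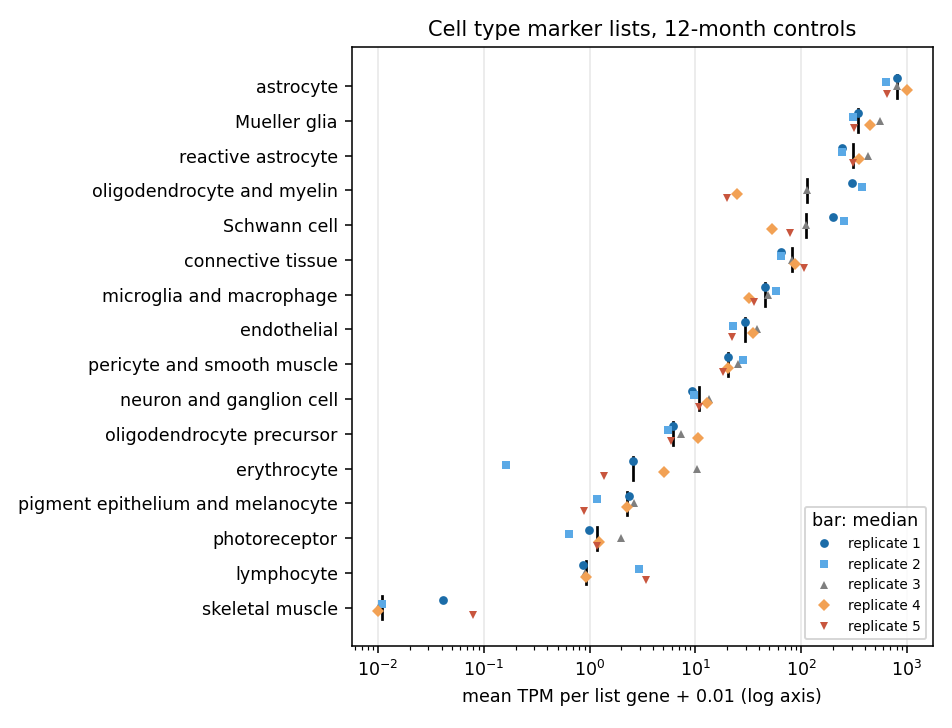
Mean TPM per gene of 16 cell type marker lists in each 12-month control library, on a log axis after adding 0.01, with a bar at the median. The astrocyte list is highest in all 5 libraries, the oligodendrocyte and myelin list is spread widest among the upper lists, and the photoreceptor and skeletal muscle lists lie near the bottom.

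Endothelial genes were mixed, with Ramp2 and Slc2a1 above 100 TPM by median and several defining genes near 0. The 18 endothelial genes summed to 530.4, 409.8, 683, 629.6 and 399.9 TPM, and 9 of them had a median of 10 TPM or more. Ramp2, a receptor co-factor for adrenomedullin, led with 162, 119.7, 236, 190.3 and 150.03 TPM. Replicate 3 was the highest. Slc2a1, the glucose transporter of the blood-brain barrier, was at 111, 90.2, 110.2, 110.5 and 54.7 TPM, and astrocytes and other cells also express it. Slco1a4, an organic anion transporter of brain capillaries, was at 107, 66.6, 78.9, 82.7 and 69.0 TPM. Flt1, a receptor for vascular endothelial growth factor, was at 31, 30.4, 101.1, 63.5 and 23.2 TPM. Slc2a1 was lowest in replicate 5, and Flt1, like Ramp2, was highest in replicate 3. Members more specific to endothelium were uneven (named after their values were seen). The junction genes Cdh5 and Cldn5 had medians of 7.26 and 3.52 TPM, Emcn 5.37 TPM, and Kdr and Egfl7 0. Eng, Tie1, Tek and Vwf were higher, with medians of 22.1, 21.1, 20.95 and 18.7 TPM. The 14 pericyte and smooth muscle genes summed to 258 to 398 TPM, of which Cnn1, a smooth muscle calponin, supplied 205, 316, 249, 172 and 149 TPM. Vtn, the adhesive glycoprotein vitronectin that pericytes of the brain express, had a median of 44.8 TPM, Rgs5, a pericyte regulator of G protein signalling, 14.7 TPM, and Acta2, smooth muscle actin, 13.4 TPM. Myh11, the smooth muscle myosin (named after its values were seen), had a median of 0.13 TPM, so high Cnn1 was not accompanied by that defining gene.

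Microglia and macrophage genes summed to 912, 1147, 982, 649 and 714 TPM over 20 genes, lower in replicates 4 and 5 than in the other 3. C1qa, a chain of complement C1q, was at 48.8, 102, 60.6, 66.0 and 80.3 TPM, and Tyrobp, the adaptor of TREM2, was at 31.4, 41.8, 83.3, 35.2 and 27.3 TPM. Tyrobp was highest in replicate 3 and C1qa in replicate 2, and 11 of the 20 genes had a median of 10 TPM or more. The microglial list was below connective tissue in 5 of 5 libraries and above the endothelial list in 4 of 5, per gene. A single member made up 63.5% of the median sum of the microglial list. Without that member the list was below the endothelial list per gene in every library, and replicate 5 was not below replicate 1.

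Connective tissue genes were led by Prelp. The 20 genes summed to 1293, 1288, 1648, 1745 and 2131 TPM, a range of 1.65-fold, and none of the 13 with a median of 10 TPM or more ranged over 4-fold, where 18.5% of all genes at that level did. Below that level Igfbp6 (named after its values were seen), another insulin-like growth factor binding protein, was at 10.9, 6.13, 5.53, 4.32 and 227 TPM, high in replicate 5 alone. Prelp, a leucine-rich proteoglycan that anchors basement membrane to connective tissue, was at 480.2, 381, 503, 566 and 588 TPM. Igfbp5, an insulin-like growth factor binding protein, was at 162, 122, 130.0, 198 and 249.98 TPM, and Mgp, the inhibitor of calcification matrix Gla protein, was at 90.2, 151, 102, 212 and 194 TPM. Prelp, Igfbp5 and the list as a whole had their highest level in replicate 5. The genes of the collagen I chains differed from each other: Col1a2 was at 61.4, 67.8, 57.3, 65.4 and 81.8 TPM and Col1a1 at 2.47, 0.07, 0.02, 0.89 and 6.14 TPM (both named after their values were seen). Dpt and Kera were at 0 in every library.

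Matrix of other kinds was led by Sparc. The 19 matched genes of neural and matricellular matrix summed to 8126, 7309.7, 11319, 12484 and 8972 TPM, with Sparc at 83.3% of the median. Sparcl1, a Sparc relative secreted by astrocytes, was at 935, 739, 748, 1331 and 1008 TPM. Spp1, the secreted phosphoprotein osteopontin, was at 158, 275, 694, 469 and 215 TPM, and Ccn2, connective tissue growth factor, was at 63.5, 139, 95.6, 80.3 and 107 TPM. Acan, Hapln1 and Thbs4 were at 0 in all 5 libraries. Fn1, the fibronectin gene (named after its values were seen, as the gene altered in the other strain), was at 5.13, 11.3, 6.46, 4.86 and 18.6 TPM on 212 to 1485 counts. Basement membrane genes summed to 212 to 422 TPM, led by Nid1 (nidogen, median 113 TPM), Col18a1 (collagen XVIII, 59.5 TPM), Lamb2 (laminin beta, 31.3 TPM) and Col4a1 (collagen IV, 21.9 TPM).

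Myelin genes varied more between the 5 control libraries than any other cell type list with a median sum above 100 TPM. The 18 genes of the oligodendrocyte and myelin list summed to 5427, 6799, 2065, 445 and 357 TPM, a range of 19.0-fold, against 1.58-fold for the astrocyte list. Mog, a protein of the outermost myelin layer, was at 195, 225, 54.4, 20.8 and 1.54 TPM. Mobp, another myelin structural protein, was at 157, 162, 23.6, 7.30 and 5.32 TPM, and Ermn, a cytoskeletal protein of myelinating cells, was at 93.1, 108, 11.9, 2.06 and 3.32 TPM. All 3 were high in replicates 1 and 2, and low in replicates 4 and 5. Cnp, an enzyme of myelin, was at 147, 175, 72.9, 45.4 and 68.4 TPM. Trf, the iron carrier transferrin that oligodendrocytes make, was at 219.5, 204, 158, 156 and 104 TPM, so both spanned less than the structural genes. The myelin transcription factor Sox10 (named after its values were seen) was at 12.8, 10.2, 0.14, 0.19 and 0.54 TPM on 219, 169, 4, 2 and 14 counts. Olig2 was at 0 in every library. Of the 7 list genes with a median of 10 TPM or more, 5 ranged over 4-fold, among them Mbp, Mog, Mobp and Ermn, where, as above, 18.5% of all genes at that level did.

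**Figure D4:**
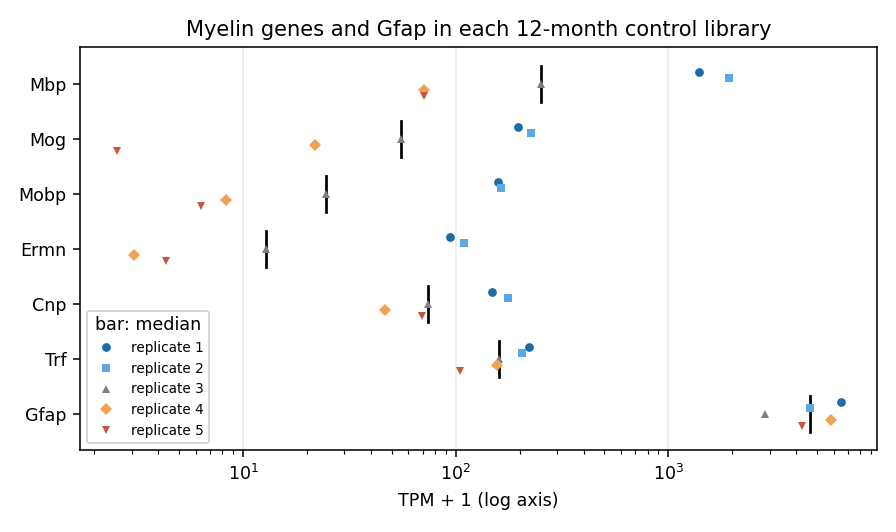
TPM of 6 myelin list genes and of Gfap in each 12-month control library, on a log axis after adding 1, with a bar at the median. Replicates 1 and 2 lie to the right and replicates 4 and 5 to the left for Mbp, Mog, Mobp and Ermn, whereas Gfap stays within 2.28-fold.

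The per-gene astrocyte level exceeded that of the myelin list by 2.67, 1.67, 6.98, 40.3 and 32.8-fold in replicates 1 to 5. In replicates 1 to 3 the myelin list was above connective tissue, microglia and endothelium, and in replicates 4 and 5 it was below all 3. The 9 Schwann cell genes, which include Mbp, summed to 483 to 2296 TPM, and the highest member made up 38.5% of the median sum. Of the 9, 4 had a median of 1 TPM or more. Another 3 were at 0 in all 5 libraries, among them Prx and Pmp2 of peripheral myelin. Oligodendrocyte precursor genes were low throughout, with Pdgfra, a growth factor receptor, at 37.4, 29, 56.2, 71.9 and 25.1 TPM and the list sum between 44.0 and 85.4 TPM.

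Replicates 1 and 2 also differed from the rest in sex-linked transcripts. Xist, the RNA of the inactive X chromosome, was at 16.8 and 13.5 TPM in replicates 1 and 2 and at 0 in the other 3, while Uty, a Y-linked gene, was at 0 in replicates 1 and 2 and at 33.4, 46.7 and 61.8 TPM in replicates 3, 4 and 5. The labels state no sex, and with these 5 libraries sex and myelin level cannot be told apart. In the 13 other libraries, the 3 with more than 100 Xist counts had a myelin sum of 3533 to 4166 TPM. Of the 10 without, 8 had 736 to 2340 TPM, below all 3, and 2 had 23705 and 24360 TPM, above all 3. The part of sex in the spread of myelin was not tested.

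The promoters of the oligodendrocyte and myelin list were searched for ACAAAG on both strands (CTTTGT on the reverse strand). SOX family factors such as SOX10 are known to bind this core sequence. Sequences are from RefSeq with the build GRCm38.p6 and cover the 250 bases before the gene start, 5′ to 3′ on the strand of the gene. Mobp is shown because it held more copies than any other promoter in the table, and Mog because it varied more between libraries and held none. Capitals mark the motif.
Mobp: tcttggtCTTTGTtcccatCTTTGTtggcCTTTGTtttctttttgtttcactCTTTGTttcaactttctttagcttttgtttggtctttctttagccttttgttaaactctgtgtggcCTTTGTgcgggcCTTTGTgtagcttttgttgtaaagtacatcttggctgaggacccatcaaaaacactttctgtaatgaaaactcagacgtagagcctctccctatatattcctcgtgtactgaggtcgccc
Mog: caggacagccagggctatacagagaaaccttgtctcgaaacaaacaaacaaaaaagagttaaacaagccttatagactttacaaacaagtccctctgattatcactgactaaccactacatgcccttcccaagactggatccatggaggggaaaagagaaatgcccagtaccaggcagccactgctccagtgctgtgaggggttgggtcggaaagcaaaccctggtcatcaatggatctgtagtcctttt
The Mobp window is chr9:120149492-120149741 on the forward strand and the Mog window is chr17:37023399-37023648 on the reverse strand. Mobp held 6 copies, all as CTTTGT, a number reached by 0.00304% of 32851 promoters. Of the 11 myelin list genes with a promoter in the table, 4 held at least 1 copy (36.4%), where 16.5% of all promoters did. These shares are unlike, since a gene was counted if any of its promoters held a copy, as for Mag. The 4 were Mobp, Cnp, Mag and Opalin, whereas Mog and Ermn held none. A match is a stretch of letters and no measurement of binding, and the motif was chosen after the values of these genes had been seen.

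RNA of photoreceptors and of tissues beside the nerve was scarce. The 17 photoreceptor genes summed to 16.8, 10.6, 33.3, 20.8 and 19.9 TPM, no member had a median of 10 TPM or more, and 7 members, among them the rod genes Pde6a, Pdc and Cnga1, were at 0 in all 5 libraries. Opn1sw, the short wavelength cone opsin, was highest at 7.0, 0, 24.2, 5.07 and 12.1 TPM. In the other 13 libraries the photoreceptor sum ran from 8.06 to 4532 TPM, and the 12-month controls all lay below the median of 40.7 TPM there. Low sums were not particular to this group, since the C57BL/6J controls at 22 months had a median of 30.4 TPM. Skeletal muscle genes summed to 0.69 TPM or less. Of the pigment epithelium and melanocyte list, Rgr, Tyr, Tyrp1, Pmel and Slc45a2 were at 0, and Mitf, a transcription factor of pigment cells that macrophages share, was its only member above 10 TPM (median 25.5). Haemoglobin RNA was low and uneven, with Hba-a2 at 15.0, 0.91, 47.2, 21.8 and 0.96 TPM.

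Neuronal marker RNA was present at low levels. Kif5a, which is not in the neuron list, was far higher at a median of 2908 TPM. The parts of cell type and read assignment in its level were not tested. The 16 neuron and ganglion cell genes summed to 150.4, 156, 217, 206 and 173 TPM. Nefh, the heavy neurofilament subunit, was at 30.7, 34.3, 29.9, 44.3 and 23.4 TPM, and Thy1, a surface protein of ganglion cells, was at 23.0, 20.3, 25.0, 20.5 and 27.2 TPM. Map2, a dendritic microtubule protein, and Rbpms, an RNA-binding protein that marks ganglion cells, had medians of 23.2 and 21.5 TPM. Thy1 and Nefh differed little between libraries.

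Among genes with a usable symbol, the widest spread between libraries was that of mt-Ty, and 16 predicted models or identifiers without a symbol ranked above the last of the 20 named and were passed over, ENSMUSG00002075188 being wider than mt-Ty. Over the 5 libraries, 927 of the 5019 genes with a median of 10 TPM or more ranged over 4-fold on the scale of log2(TPM + 1), 18.5% of them. The share was 20.9% for genes of 10 to 100 TPM and 7.10% for the 887 genes of 100 TPM or more. Replicate 3 was the highest library for 340 of the 927 and the lowest for 292, more than any other library, and without it 462 genes ranged over 4-fold (9.04%). Replicates 1 and 2 were above the other 3 in 81 of the 927, and replicates 4 and 5 were below the other 3 in 61. Other pairs of libraries were not counted, so these counts do not set the named pairs apart.

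Of the 20 genes of widest spread, 6 were mitochondrial tRNA or microRNA genes of at most 117 nucleotides whose TPM rested on 20 counts or fewer per library, for example mt-Ty at 402, 259, 0, 451 and 685 TPM on 17, 13, 0, 20 and 16 counts. The remaining 14 held the myelin genes Mog, Ermn, Mbp and Mobp, and with them Anln, an actin-binding protein of dividing and myelinating cells, at 113, 102, 39.6, 3.54 and 4.95 TPM. Anln followed the myelin genes in being high in replicates 1 and 2 and low in replicates 4 and 5. Ptgds, a prostaglandin D synthase abundant in the membranes around the brain and nerve, was at 19.7, 22.2, 34.1, 46.8 and 1557 TPM, high in replicate 5 alone. H2-Aa, a class II antigen presentation gene, was at 24.9, 0, 14.8, 54.6 and 40.1 TPM. mt-Nd3, a further complex I subunit, was at 31.7, 72.9, 113, 147 and 0 TPM. H2-Aa was thus at 0 in replicate 2 and mt-Nd3 in replicate 5. Tekt2, a protein of cilia, was at 0 in replicates 1 and 2 and at 10.4, 20.03 and 16.1 TPM in replicates 3 to 5. Med1, a Mediator subunit, was at 40.7, 25.9, 0.11, 15.2 and 43 TPM, with replicate 3 alone near 0 on 7 counts. Snhg1, a small nucleolar RNA host gene, and Cox6b2, a cytochrome oxidase subunit, were also at 0 in replicate 3.

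**Figure D5:**
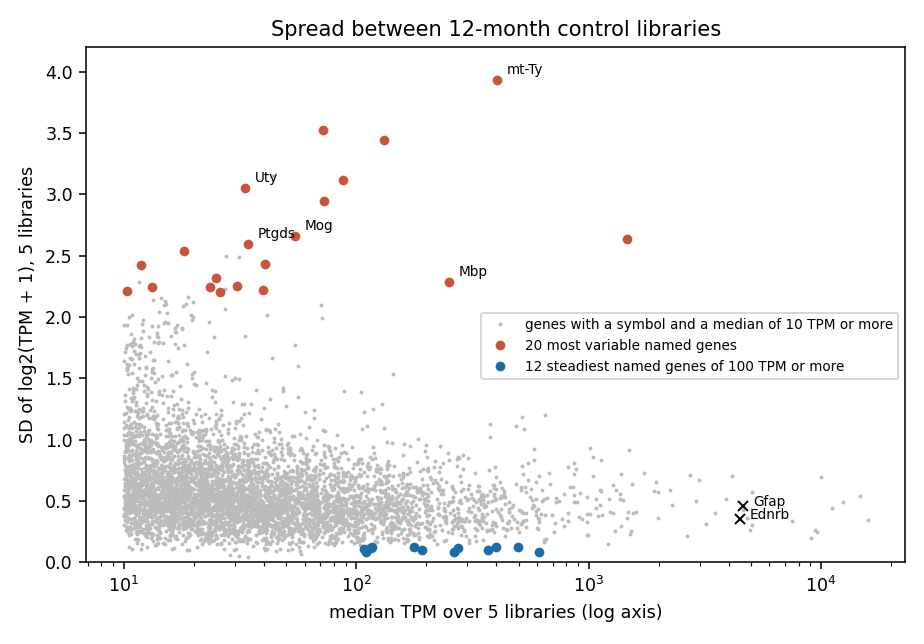
SD of log2(TPM + 1) over the 5 libraries against median TPM on a log axis, a grey point per gene with a symbol and a median of 10 TPM or more, with the 20 most variable named genes in red and the 12 steadiest of 100 TPM or more in blue. Mbp stands out as an abundant gene of wide spread, whereas Gfap and Ednrb have an SD of 0.46 and 0.35.

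The steadiest named gene of 100 TPM or more was Capns1. It encodes the small regulatory subunit of calpain and was at 601, 612, 696, 614 and 627 TPM (SD of log2 0.08). Rhoa, a GTPase that controls actin, was at 103, 111, 110.3, 106 and 121 TPM, and Gabarap, a protein of autophagosome formation, was at 374, 359, 370.3, 415 and 345 TPM. Snrpe, Arl5a, Impad1, Ccnd3, Tmem128, Btg3, Pcp4, Hmgb1 and Stx7 completed the 12, with an SD of log2 between 0.09 and 0.13.

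The profile was set against the mean of the other 3 groups to show where it differed. In edgeR's quasi-likelihood fit over all 18 libraries, 0 of 15118 genes (0%) passed a Benjamini-Hochberg adjusted p of 0.05, two-sided. The lowest adjusted p was 1.00, and 643 genes had an unadjusted p under 0.05. DESeq2 called 20 of 14961 genes (0.134%), 3 higher and 17 lower in the 12-month controls, and limma with voom quality weights called 0 (790 at an unadjusted p under 0.05). The log2 difference was -0.20 ± 0.28 (SE) for Gfap, 0.19 ± 0.49 for Ednrb, -0.10 ± 0.42 for Aqp4, -0.33 ± 0.26 for Lum and 0.28 ± 0.31 for Csf1r. It was -0.35 ± 0.91 for Mbp and -0.10 ± 1.26 for Pecam1, and these standard errors leave differences of several-fold undetectable. In the myelin list 3 of 18 genes had a positive difference (median -0.22), and in the photoreceptor list 0 of 9 tested (median -1.35), against 7938 of the 15118 genes in all (median 0.03). None of the genes in these lists passed the edgeR threshold, while DESeq2 called 1 gene of each as lower, Olig2 (adjusted p = 0.0319) and Rp1 (adjusted p = 7.17e-09). Both were at 0 in every 12-month control library. They also had a median of 0 TPM over the libraries of the other groups, with highest levels there of 3.72 TPM for Olig2 and 4.71 TPM for Rp1. The biological coefficient of variation was 1.09 for the 12-month controls and 0.935 to 1.1 for the other groups, so the spread between control libraries was of the size seen elsewhere in the series.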

How the data were processed

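RNA was measured in optic nerve head tissue taken by laser capture. Per the labels' protocols, SMART-Seq v4 cDNA went into Nextera XT libraries, a method that does not mark strand, for paired reads. STAR alignment and RSEM quantification are likewise stated per the labels' protocols, and GRCm39 is the build named per the submitters' processing notes. The versions used and the annotation were not given in the sources used here. Per the file headers, each gene table of the authors lists expected counts, estimates of which 3.50% were not whole in the 12-month controls, and TPM values, which the authors scaled for effective length. The isoform tables were not used. Genes with near-identical copies, overlapping genes and antisense genes carry uncertain values, since RSEM divides shared reads among them.

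Symbols came from the GENCODE M21 annotation of GRCm38 and matched 52083 of 55416 identifiers. Promoters came from RefSeq (GRCm38.p6). Levels were described in Python 3.11.15 with pandas 2.3.3. Spread is the SD of log2(TPM + 1), with a pseudocount of 1. The contrast used rounded counts, filterByExpr, TMM scaling and robust quasi-likelihood fits in edgeR 4.0.16 (R 4.3.3), tested on simulated data first, with DESeq2 1.42.0 and limma 3.58.1 as alternatives. Replicates were numbered in accession order.

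The text names the 7 markers, the 30 most abundant genes, the 20 most and 12 least variable, and the 4 highest members of each of 24 fixed lists with up to 4 members at 0. Ribosomal, mitochondrial, immediate early and chaperone genes were among the lists. Predicted models, clone names and pseudogenes were passed over (11 among the abundant and 16 among the variable genes). List members with a median of 0 that tied for a place among the 4 were not named. Some genes that the rule would name are not reported here. The list names Cyr61 and Ctgf are older names of Ccn1 and Ccn2 and were not matched. The members and lists were chosen with earlier results of these data known. Alternatives were other TPM scalings, pseudocounts, minimum levels, tools and the leaving out of each library; scaling to protein-coding genes, a covariate for Xist and the myelin level beside Xist were chosen after seeing the data.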

Additional observations from a re-analysis of the deposited data

Results flagged for a closer look

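Of 176 values examined in the 5 control libraries (list sums and named genes), 12 had a library separated from the nearest other by more than Dixon's 95% critical value of 0.71 of the whole range. Chance flags about 1 in 20 groups, a rate that does not hold for genes chosen by their spread or for sums that share genes with the named ones. Replicate 3 was the separate library in 8 of the 12, replicate 5 in 3 and replicate 1 in 1.

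In replicate 3, the summed TPM of cytosolic ribosomal protein genes was 7946 against 4311 to 5118 in the others, and Vim was at 1121 TPM against 584 to 626. Capns1 was at 696 TPM against 601 to 627, and the ganglion cell marker Rbpms at 46.9 TPM against 15.8 to 21.5. Lower in replicate 3 were Ftl1, the ferritin light chain, at 251 TPM against 380.0 to 449, and Aldoa, a glycolytic aldolase, at 197 TPM against 274 to 308. Med1 was at 0.11 TPM against 15.2 to 43, and mt-Ty at 0 TPM against 259 to 685.

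In replicate 5, Ptgds was at 1557 TPM against 19.7 to 46.8, Nkg7, a gene of cytotoxic lymphocytes, was at 4.13 TPM against 0 to 0.59, and Serpina3n was at 129.99 TPM against 367 to 460. In replicate 1, Gnat1, the rod transducin gene, was at 1.77 TPM against 4.98 to 6.66.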

How the results depend on the processing

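The 4-fold criterion was the result that moved most. Leaving out each library gave 462 to 812 variable genes in place of 927 (462 without replicate 3), partly because 4 libraries span less than 5. A minimum of 1 TPM in place of 10 gave 4073 (37.4%), and scaling to protein-coding genes gave 1677 (26.5%). The count of genes at a median of 1 TPM was 10901 and 6980 at 5 TPM, and leaving out a library gave 10960 to 11374. The leading 100 genes held 53.1% of TPM without ENSMUSG00000119584 and mitochondrially encoded genes and 39.5% over protein-coding genes, where leaving out a library gave 62.0% to 65.7%. Leaving out a library moved the median sum of 21 of 24 lists by less than 1.5-fold. That of the myelin list went from 2065 to 1255 (without replicate 1 or 2) or 3746 (without replicate 4 or 5), the lymphocyte list from 10.06 to at most 21.2 TPM, and skeletal muscle stayed at or below 0.16 TPM. Scaling to protein-coding genes moved 19 of 24 sums by over 1 SD. The range of the myelin list was 19.0-fold in TPM, 18.2-fold in TMM-scaled counts and 20.6-fold in protein-coding TPM. In the contrast, DESeq2 called 20 genes and each of 25 other edgeR and limma settings called 0, the lowest adjusted p over 18 fits without a library being 0.206. No paired analysis was possible because the labels give no replicate numbers shared between groups. Depth limits genes of few counts, such as Pecam1 and the mitochondrial tRNA genes.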

Other observations

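Iron handling genes were led by Cp, which made up 71.2% of the median sum. The 8 iron genes summed to 2730.3, 2632, 4261, 3885 and 3211 TPM, and Cp was followed by Ftl1, at 387, 380.0, 251, 449 and 429 TPM, and Hfe, a regulator of iron uptake, at 302, 212, 575, 505 and 287 TPM. Fth1, the ferritin heavy chain, was at 248, 323, 168, 105 and 92.6 TPM, lowest in the 2 libraries of lowest myelin. Of the chaperones, Cryab, a small heat shock protein of astrocytes and oligodendrocytes, was at 1385, 1415, 2874, 1338 and 699.5 TPM, and Hsp90aa1 at 1629, 1433, 988, 959 and 643 TPM. Hspa8 and Hspa5, chaperones of the cytosol and the endoplasmic reticulum, had medians of 168 and 113 TPM. Other members of both lists were low (named after their values were seen): the transferrin receptor Tfrc had a median of 1.9 TPM, the iron exporter Slc40a1 8.93 TPM, and the inducible chaperones Hspa1a and Hspa1b 0.82 and 0.4 TPM. Immediate early genes, which rise within minutes of stimulation or tissue handling, summed to 180 to 327 TPM. Nr4a1, a nuclear receptor among them, was at 161, 67.8, 9.87, 6.42 and 33.3 TPM, and Dusp1, a phosphatase, at 42.5, 103, 28.3, 138 and 58.2 TPM. Replicate 1 was highest for the first and replicate 4 for the second.

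Glycolytic genes were uneven beside Gapdh. Pkm, pyruvate kinase, had a median of 830 TPM, Pfkl, phosphofructokinase, 631 TPM and Aldoa 289.7 TPM, whereas Pgk1 and Tpi1 (named after their values were seen) had 4.04 and 6.01 TPM. Of 65 cytosolic ribosomal protein genes, 25 had a median of 10 TPM or more and 16 were below 1 TPM. The highest were Rpl38 (2250.0 TPM) and Rpl13 (1517 TPM), and Rpl23 and Rpl4 followed at 208 and 146 TPM. For 13 of the 16 the annotation lists named copies, and in 11 of these the copies together held less than 1 TPM in every library. Of 13 mitochondrially encoded protein genes, mt-Nd2 and mt-Nd1 led, mt-Atp6 and mt-Co1 had medians of 1456 and 1226 TPM, and mt-Co2 (named after its values were seen) was listed with a median of 0. The part of read assignment in these uneven levels was not tested.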
